A study of Homo sapiens with 6 samples.

Results

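Integrins and laminins, the receptors and ligands by which epithelial cells hold on to a basement membrane, were followed in HCT116 cells with and without a hairpin against STBD1. All protein-coding genes whose symbol marks an integrin alpha chain, an integrin beta chain or a laminin chain were taken, which gave 38 of the 19773 protein-coding genes and of the 58395 genes listed in all. They comprised 18 integrin alpha, 8 integrin beta and 12 laminin genes. The symbol alone decided which genes belong, but these families were taken up with earlier results of these data known.

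RNA-seq had been made from HCT116, an established human colorectal cancer cell line grown in DMEM with serum. The 3 shControl samples carried a lentiviral non-target hairpin, the 3 shSTBD1 samples a lentiviral hairpin against STBD1, a glycogen-binding protein that links glycogen to the autophagy machinery, and infected cells had been kept in a selection medium. Each group rested on a single hairpin sequence in 1 cell line, so a consequence of STBD1 loss and an off-target action of its hairpin cannot be told apart. The samples were described as biological replicates, with no statement of how the cultures were separated. The p-values therefore weigh the group difference against the spread between these samples only. In the edgeR fit used below that spread, beyond counting noise, was 3.37% as a common coefficient of variation.

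An integrin is a pair of 1 alpha and 1 beta chain that spans the plasma membrane, binds a matrix protein outside and the actin or keratin cytoskeleton inside. The alpha chain sets most of the choice of ligand: some alpha chains bind laminin, others collagen, others proteins with an RGD motif such as fibronectin and vitronectin. A laminin is a cross-shaped trimer of an alpha, a beta and a gamma chain, secreted mainly by the epithelium itself and polymerized in the basement membrane. In gut epithelium the laminin that holds LAMA3 and LAMB3 anchors cells through the pair of ITGA6 and ITGB4, while trimers with LAMA5 are the common laminins of the mature basement membrane.

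The targeted gene came first. TPM, the abundance of transcripts scaled for their length and for depth, of STBD1 was 5.73, 5.83 and 5.27 in the shControl libraries and 4.19, 3.22 and 3.27 in the shSTBD1 libraries. Every shSTBD1 library lay below every shControl library, with a log2 fold change of counts of -0.64 (SE 0.0979, adjusted p = 2.9e-04 in edgeR's quasi-likelihood test). By a two-sided exact permutation test the p was 0.1, the smallest that 3 against 3 samples can give, and by limma on log2(TPM + 1) the change was -0.54 (limma adjusted p = 0.065). Here and in what follows, the log2 fold change is of counts, shSTBD1 over shControl, and the adjusted p is edgeR's with Benjamini-Hochberg adjustment over all 15566 genes tested. A gene with an adjusted p under 0.05 is called.

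The libraries held between 17689097 and 21668274 counts. The markers of colorectal epithelium summed to between 2859 and 2894 TPM in shControl and between 3243 and 3380 TPM in shSTBD1. Among the 7 tested, KRT8, KRT18, KRT19 and CDH1 were called higher, against 8.22% of all tested genes. EPCAM (0.04), CDX2 (-0.072) and KRT20 (0.66, edgeR adjusted p = 0.064) were not called, and VIL1 was at 0.21 TPM or less. Mean TPM of CDX2 was nevertheless lower in shSTBD1, at 5.39 (SD 0.736) against 7.33 (SD 0.396) in shControl. The estimated transcript length of CDX2 was longer in every shSTBD1 library than in every shControl library. No length-scaled test is reported here for CDX2. Fibroblast markers summed to between 15.2 and 20.2 TPM in shControl and between 17.3 and 20.8 TPM in shSTBD1, carried by COL1A1, with LUM at 0. Endothelial markers summed to 0.69 TPM or less in every library. Whether the rise of these keratins and CDH1 had a part in the changes below was not tested. In bulk RNA fewer cells of a kind and less RNA per cell cannot be told apart.

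Sequences upstream of 3 laminin genes are shown because the LAMA3 and LAMB3 chains, which assemble into the same trimer, both rose after the hairpin, while LAMA2 fell. Windows of 250 bases before a transcription start were taken from RefSeq (GRCh38.p14) for 26 of the 38 genes, 33 windows in all. The capitals mark TGANTCA, the motif bound by AP-1 factors, which reads the same on both strands and was chosen with the results known.
LAMA3 (chr18:23872770-23873019, plus strand): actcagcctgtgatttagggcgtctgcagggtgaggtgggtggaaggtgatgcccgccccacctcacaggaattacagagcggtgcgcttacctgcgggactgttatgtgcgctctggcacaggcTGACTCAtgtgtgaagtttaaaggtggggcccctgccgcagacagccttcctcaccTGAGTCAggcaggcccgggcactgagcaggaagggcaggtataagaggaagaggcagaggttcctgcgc
LAMB3 (chr1:209651375-209651624, minus strand): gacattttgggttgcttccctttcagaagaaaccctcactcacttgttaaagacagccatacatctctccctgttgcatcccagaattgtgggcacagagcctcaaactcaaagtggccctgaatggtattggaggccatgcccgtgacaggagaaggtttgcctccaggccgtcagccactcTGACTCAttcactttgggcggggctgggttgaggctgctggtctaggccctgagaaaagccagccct
LAMA2 (chr6:128882888-128883137, plus strand): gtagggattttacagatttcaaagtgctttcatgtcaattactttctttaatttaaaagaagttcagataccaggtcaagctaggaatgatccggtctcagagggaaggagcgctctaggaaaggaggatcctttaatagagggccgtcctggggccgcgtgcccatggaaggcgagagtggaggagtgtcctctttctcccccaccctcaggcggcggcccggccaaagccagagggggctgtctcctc

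The LAMA3 window, which lies before a start inside the gene, held the motif at 2 places, beginning 125 and 69 bases before the start. The LAMB3 window, 1 of 3 for that gene, held it once, 67 bases before the start. Neither the LAMA2 window nor any other of the 33 held it. In all, 2 of 33 windows of integrins and laminins (6.06%) had a match, against 6.57% of the 35116 windows of all genes, and 0.402% of all windows had 2 or more. A match describes the letters only and is neither a proven site nor a cause. The windows of LAMA3 and LAMB3 held 60.4% and 54% G and C, that of LAMA2 53.2%, and the median over all windows was 58%. The LAMA4 window, with 48.4%, overlaps exons of other LAMA4 transcripts and is not printed.

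Of the 38 genes, 27 were expressed by the threshold of a mean of 0.5 TPM over the 6 libraries, 17 of 26 integrins and 10 of 12 laminins. At a threshold of 1 TPM the number was 22. Just inside the lower threshold stood ITGA9 (0.6 TPM), ITGA10 (0.62), ITGB7 (0.657) and ITGA1 (0.765), and just outside it ITGB8 (0.258), ITGB3 (0.225) and ITGB2 (0.0867). The other 8 genes below it were ITGA4, ITGA8, ITGA11, ITGAD, ITGAL, ITGB6, LAMA1 and LAMB4, with means between 0 and 0.0367 TPM. LAMB4 was listed at 0 in every library.

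The most abundant integrin chain was ITGB1, the common partner of many alpha chains, at 217 ± 5.89 TPM (SD, n = 3) in shControl, followed by ITGA3 at 119 ± 3.18 TPM and ITGB4 at 95.1 ± 5.98 TPM. Among the laminins LAMA5 stood at 130 ± 13 TPM, LAMB2 at 108 ± 8.33 TPM and LAMC1 at 47.5 ± 1.67 TPM in shControl. Each of these led its own class of chains, ITGA3 among alpha, ITGB1 among beta, LAMA5, LAMB2 and LAMC1 among the laminin chains, and each still led it in shSTBD1. LAMA5 held between 90.1% and 93.2% of the summed TPM of laminin alpha chains in every library. The level of LAMB2 rested on an effective length of 1126 to 1263 bases, while its longest transcript has 5692 bases. For LAMA5 the effective length was 3506 to 3926 bases and the longest transcript has 11426 bases, so its share rests on that estimate as well.

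After filtering on low counts, 29 of the 38 genes were tested: the 27 expressed ones plus ITGB3 and ITGB8. Of these, 14 were called (48.3%), against 15.8% of all tested genes (2453 of 15566). The 8 called higher were 27.6% of the 29, against 8.22% of all genes, and the 6 called lower were 20.7%, against 7.54%. At an unadjusted p under 1e-5, 3 passed (10.3%), namely LAMA4, LAMB3 and LAMB2, against 2.38% of all genes. In CPM, the counts scaled for depth but not for length, 17 of the 29 (58.6%) had groups that did not overlap, against 33.6% of all genes. Their median log2 fold change was 0.024, beside 0.0023 over all genes. Without the library shSTBD1 3, 9 of them were called, with 3 lower, and over all genes the count of calls was 1570, 1409 and 1497 without shSTBD1 1, shSTBD1 2 or shSTBD1 3.

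By family, 7 of 10 tested laminins (70%) and 7 of 19 tested integrins (36.8%) were called, against 15.8% of all tested genes. The median absolute log2 fold change was 0.25 for laminins, 0.15 for integrins and 0.11 for all tested genes. Every tested laminin alpha chain was called, LAMA3 and LAMA4 higher and LAMA2 and LAMA5 lower. All 3 tested laminin beta chains were called higher in counts, of which LAMB1 turned to a change between -0.046 and -0.042 once transcript length was taken into account. The gamma chains LAMC1 and LAMC3 were not called by edgeR or by DESeq2, with unadjusted p-values of 0.52 and 0.11 in the edgeR test. Under each setting that scales for length fewer genes of both families passed the test. With offsets for effective length 6 did and with limma on log2(TPM + 1) 3 did. Calls over all 15566 tested genes fell as well, from 2453 to 512 and 292.

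**Figure D1:**
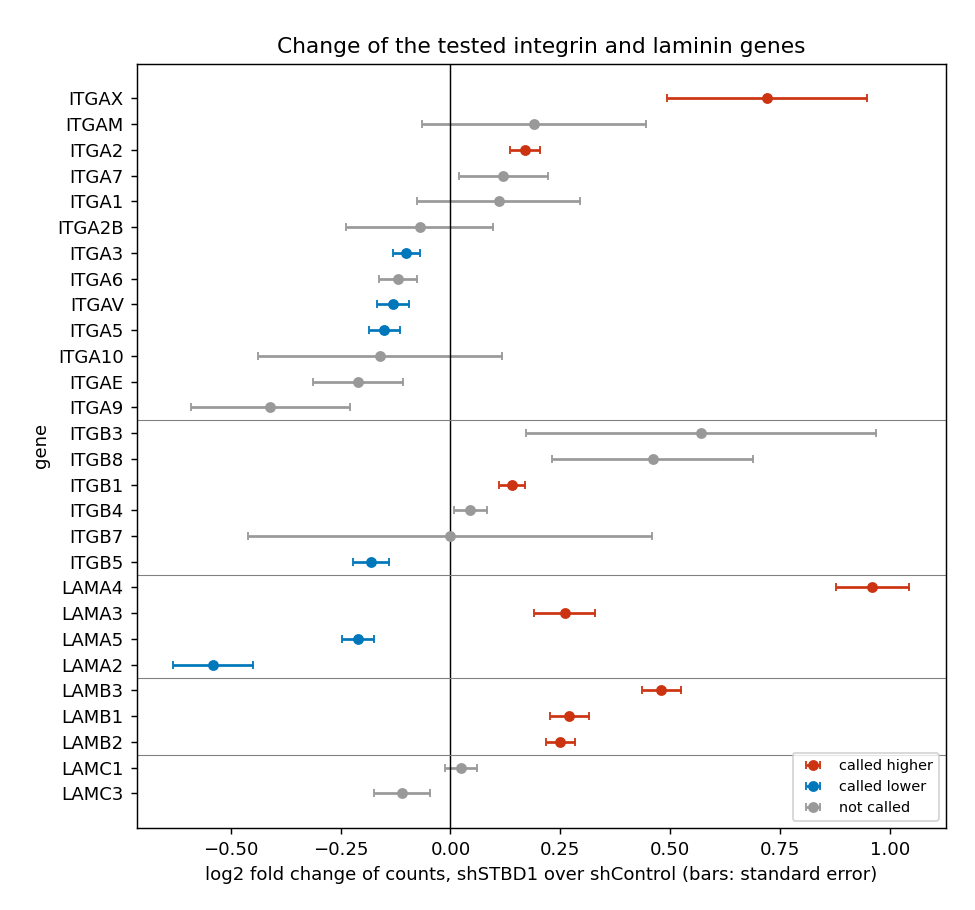
Log2 fold change of counts (shSTBD1 over shControl) with its standard error for 28 tested genes, grouped by chain class from integrin alpha at the top to laminin gamma at the bottom. LAMA4 (0.96) and LAMA2 (-0.54) mark the ends of the called changes, LAMC1 and LAMC3 lie near 0, and LAMB1 (0.27) is the called gene whose sign turned under length-scaled settings.

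LAMA4, an alpha chain known from the basement membranes of vessels, fat and muscle, rose the most. Its TPM was 1.84, 3.02 and 2.63 in shControl and 4.57, 4.54 and 5.47 in shSTBD1. The groups did not overlap, and the lowest shSTBD1 library was well above the highest shControl library. In CPM it went from 8.63 ± 0.202 to 16.8 ± 0.99 (SD, n = 3), a log2 fold change of 0.96 (SE 0.083, edgeR adjusted p = 8.2e-07). With limma on log2(TPM + 1) its change was 0.76 at an adjusted p of 0.053, and with log2(TPM + 0.1) 0.96 at 0.06. LAMA4 lies at chr6:112107931-112254939 on the minus strand.

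LAMA3, the alpha chain of the hemidesmosome laminin, also rose. Its TPM was 3.38, 3.68 and 3.72 in shControl and 4.67, 4.56 and 5.36 in shSTBD1, again without overlap. The log2 fold change was 0.26 (SE 0.0694, edgeR adjusted p = 0.019), and its effective length was shorter in every shSTBD1 library (4603 to 5292 bases) than in every shControl library (5398 to 5798 bases). The call was lost in edgeR without shControl 2 (adjusted p = 0.066), without shSTBD1 1 (0.077) or without shSTBD1 3 (0.086), by DESeq2 (adjusted p = 0.063), and by limma on log2(TPM + 1) (adjusted p = 0.13) and on log2(TPM + 0.1) (0.14).

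LAMA2, the alpha chain best known from the basement membrane of muscle and nerve, fell. TPM of LAMA2 was 5.53, 3.86 and 4.86 in shControl and 1.62, 1.08 and 2.09 in shSTBD1. The highest shSTBD1 value was thus below the lowest shControl value. In counts the fall was -0.54 on the log2 scale (SE 0.0904, edgeR adjusted p = 6.4e-04), from 12.9 ± 0.17 to 8.82 ± 0.789 CPM (SD, n = 3), while the log2 ratio of the group means in TPM was -1.57.

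The gap between the counts and the TPM of LAMA2 followed its effective length. Effective length is the average length of a gene's transcripts, corrected for fragment size and weighted by their estimated abundance. For LAMA2 it was 2619, 3848 and 3064 bases in shControl and 5551, 9399 and 5077 bases in shSTBD1, a ratio of 2.1 between group means. LAMA2 transcripts in the annotation range from 407 to 9960 bases, so in shSTBD1 the estimated abundance lay more in longer transcripts. These lengths are estimates from about 212 counts per library. Scaled for length the fall was called as well, with log2 fold changes of -1.59 (edgeR adjusted p = 0.0077 with offsets for effective length) and -1.16 (adjusted p = 0.026 by limma on log2(TPM + 1)).

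LAMA5, the main alpha chain of these cells, fell slightly. Its TPM was 120, 145 and 126 in shControl and 105, 109 and 118 in shSTBD1. The groups were separate but close, with a log2 fold change of -0.21 (SE 0.0357, edgeR adjusted p = 6.5e-04). With offsets for effective length and with limma on TPM the fall did not pass the test, the highest adjusted p being 0.19.

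Summed over the 4 expressed alpha chains, TPM was 130, 155 and 137 in shControl and 116, 120 and 131 in shSTBD1, so the groups overlapped. LAMA4 made up between 1.41% and 1.95% of this sum in shControl and between 3.8% and 4.18% in shSTBD1. LAMA3 went from between 2.37% and 2.72% to between 3.82% and 4.1%, and LAMA2 from between 2.49% and 4.24% to between 0.904% and 1.6%. The rank order of the minor chains in TPM thus differed between the groups, with LAMA2 first on average in shControl and last in shSTBD1. That order rests on the estimated effective lengths. In mean CPM, LAMA3 was first in both groups (17.7 in shControl, 21.2 in shSTBD1). LAMA2 had 12.9 and 8.82 CPM and LAMA4 8.63 and 16.8 CPM, in the same order of groups. No test was made on these shares.

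**Figure D2:**
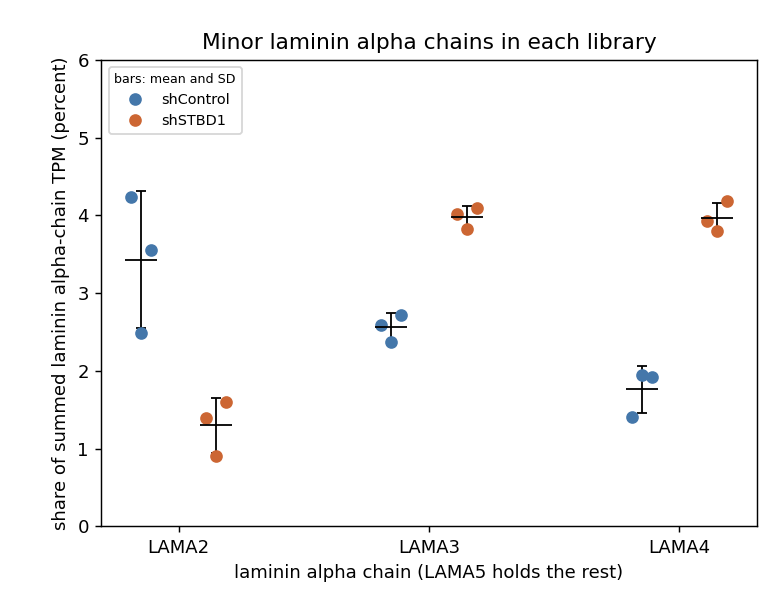
Share of the summed laminin alpha-chain TPM held by LAMA2, LAMA3 and LAMA4 in each library, in percent, with bars for the group mean and SD. The shControl and shSTBD1 points are apart for all 3 chains, with LAMA2 lower in shSTBD1 (mean 1.3% against 3.43%) and LAMA4 higher (3.97% against 1.76%).

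LAMB3, the beta chain that pairs with LAMA3 in the hemidesmosome laminin, rose the most among beta chains. Its TPM was 15.2, 15.5 and 16.5 in shControl and 21.9, 19.8 and 20.7 in shSTBD1. All shSTBD1 libraries were above all shControl libraries, and the log2 fold change was 0.48 (SE 0.0434, edgeR adjusted p = 1.3e-06). The call stood in all 15 alternative settings tried, as it did for LAMB2 and LAMA2.

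LAMB2, the beta chain of basement membranes at synapses, kidney filter and vessels, was the most abundant beta chain. Its TPM was 99.3, 116 and 108 in shControl and 137, 131 and 134 in shSTBD1. All shSTBD1 values were above all shControl values, and the log2 fold change was 0.25 (SE 0.0326, edgeR adjusted p = 6.2e-05).

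For LAMB1, the beta chain of many trimers with LAMC1, counts and TPM differed in direction. In CPM it went from 57.2, 52.6 and 57.4 in shControl to 67.8, 65.9 and 68.4 in shSTBD1, a log2 fold change of 0.27 (SE 0.0446, edgeR adjusted p = 5.3e-04). In TPM the values were 23.2, 19.1 and 18.5 against 19.1, 19.2 and 20.3, and the groups overlapped. Its effective length was 2752, 3217 and 3559 bases in shControl and 4031, 3827 and 3780 bases in shSTBD1, longer in every shSTBD1 library. The reads of LAMB1 thus rose while its length-scaled level did not pass any test.

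Summed over the 3 beta chains, TPM was between 138 and 151 in shControl and between 170 and 178 in shSTBD1. LAMC1, the gamma chain of most trimers, had 46.9, 46.2 and 49.4 TPM in shControl and 48.7, 52.6 and 47.3 TPM in shSTBD1, with overlap and a log2 fold change of 0.024 (SE 0.0357, edgeR adjusted p = 0.71). LAMC3 stood at 7.74 ± 0.494 TPM in shControl and 7.49 ± 0.583 TPM in shSTBD1 (SD, n = 3), with a log2 fold change of -0.11 (SE 0.0643, edgeR adjusted p = 0.28).

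**Figure D3:**
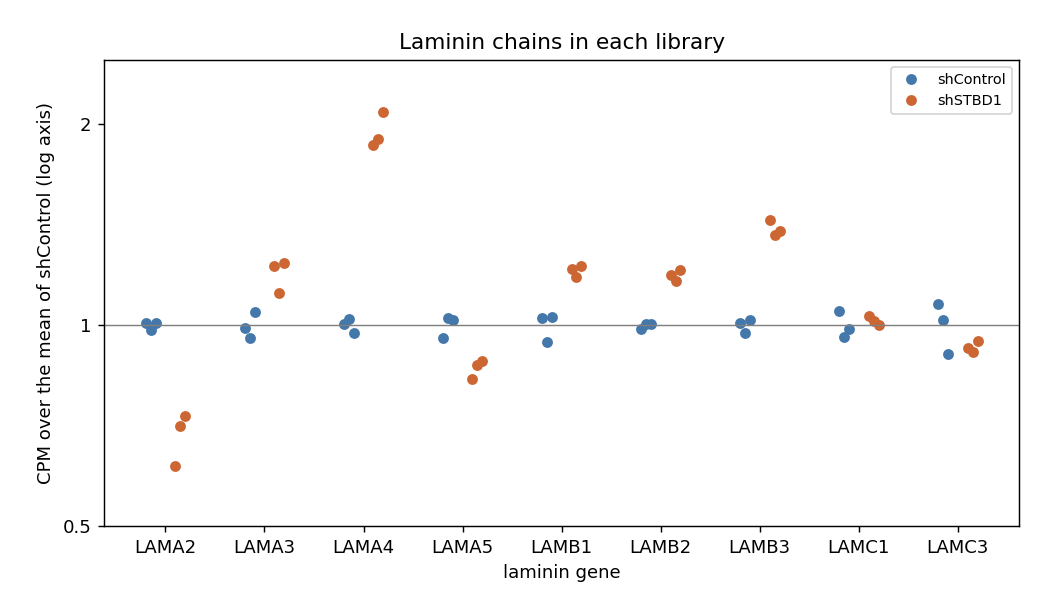
CPM of 9 tested laminin genes in each library, divided by the gene's shControl mean (log axis). LAMA4 and LAMB3 points of shSTBD1 lie above 1 and LAMA2 points below it without overlap, LAMC1 and LAMC3 overlap, and LAMB1 lies above 1 here although its TPM groups overlapped.

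Among integrins most changes were smaller than among laminins. With offsets for effective length ITGAV alone of the 7 called integrins passed (-0.34, edgeR adjusted p = 0.025), while ITGB1 (adjusted p = 0.056), ITGA2 (0.085) and ITGB5 (0.16) were among those that did not. With limma on log2(TPM + 1) the adjusted p of these 4 genes lay between 0.088 and 0.29. ITGB1 rose from 211, 218 and 223 TPM in shControl to 240, 232 and 239 TPM in shSTBD1. The ranges were apart, and the log2 fold change was 0.14 (SE 0.0289, edgeR adjusted p = 0.0033). ITGB1 held between 60.9% and 62.9% of the summed integrin beta TPM in shControl and between 64.4% and 65.3% in shSTBD1.

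ITGB5, which pairs with ITGAV to bind vitronectin, fell. In CPM it was 73.3, 69.1 and 69.3 in shControl and 63.4, 61.2 and 61.8 in shSTBD1, with no overlap and a log2 fold change of -0.18 (SE 0.041, edgeR adjusted p = 0.0058). In TPM the groups overlapped, at 34.4, 38.5 and 32.5 against 25.2, 27.7 and 33. ITGB4, the partner of ITGA6 in hemidesmosomes, had 99.4, 88.2 and 97.5 TPM in shControl and 106, 94.5 and 95.5 TPM in shSTBD1, and its log2 fold change was 0.045 (SE 0.0376, edgeR adjusted p = 0.46). Without shControl 1 ITGB4 came out higher (0.091, edgeR adjusted p = 0.011).

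The laminin-binding alpha chains ITGA3, ITGA6 and ITGA7 were lower or not called. ITGA3 went from 121, 121 and 115 TPM in shControl to 109, 113 and 115 TPM in shSTBD1. The groups came together at 115 TPM after rounding, and the log2 fold change was -0.10 (SE 0.0313, edgeR adjusted p = 0.031). That call was lost without shControl 3 (edgeR adjusted p = 0.055), shSTBD1 1 (0.11), shSTBD1 2 (0.09) or shSTBD1 3 (0.11). ITGA6 had a log2 fold change of -0.12 (SE 0.0436, edgeR adjusted p = 0.076), with 40.4, 37.4 and 38 TPM against 38.7, 35.5 and 33.2 TPM, and was called lower without shControl 2 (-0.17, edgeR adjusted p = 0.01). ITGA7 varied widely, at 6.11, 14.9 and 9.09 TPM within shControl alone, with a log2 fold change of 0.12 (SE 0.101, edgeR adjusted p = 0.47).

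Of the chains that bind collagen, ITGA2 rose. Its TPM was 19.1, 21 and 20.3 in shControl and 22.8, 22.1 and 21.8 in shSTBD1, without overlap, and the log2 fold change was 0.17 (SE 0.0334, edgeR adjusted p = 0.0029). Its share of the summed integrin alpha TPM was between 7.02% and 7.19% in shControl and between 8.27% and 8.58% in shSTBD1. ITGA1 (log2 fold change 0.11, SE 0.185) and ITGA10 (-0.16, SE 0.278) had 63.5 and 24.7 counts per library on average and were not called.

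The chains that bind RGD proteins fell in part. ITGA5, the fibronectin receptor chain, had 33.2, 34.7 and 33.8 TPM in shControl and 31.1, 30.9 and 29.6 TPM in shSTBD1. Its groups did not overlap, with a log2 fold change of -0.15 (SE 0.0352, edgeR adjusted p = 0.009), and the call was lost without shSTBD1 3 (edgeR adjusted p = 0.062). ITGAV, which binds vitronectin and latent TGF-beta, had 20.9, 22.1 and 24.8 TPM in shControl and 17.6, 18.6 and 16.8 TPM in shSTBD1. These ranges were apart, but in counts the log2 fold change was -0.13 (SE 0.0365, edgeR adjusted p = 0.026). The call on ITGAV was lost without shControl 2 (edgeR adjusted p = 0.056), shControl 3 (0.12), shSTBD1 1 (0.055), shSTBD1 2 (0.12) or shSTBD1 3 (0.09), and with DESeq2 (adjusted p = 0.054). ITGA2B, the platelet chain, was at 2.35 ± 0.804 TPM in shControl and 1.97 ± 0.496 TPM in shSTBD1 (SD, n = 3), and its log2 fold change was -0.07 (SE 0.167).

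ITGA9, which binds tenascin, had 57 counts per library and a log2 fold change of -0.41 (SE 0.181, edgeR adjusted p = 0.14), and its sign turned to between 0.039 and 0.10 under settings scaled for length. TPM of ITGA9 was 0.45, 0.56 and 0.71 in shControl and 0.8, 0.34 and 0.74 in shSTBD1. The integrin alpha chains summed to between 273 and 298 TPM in shControl and between 259 and 267 TPM in shSTBD1, the beta chains to between 346 and 354 and between 356 and 373 TPM.

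ITGAX, an alpha chain of myeloid cells, was called higher on few reads. It had 32, 25 and 38 counts in shControl and 53, 60 and 50 in shSTBD1, a log2 fold change of 0.72 (SE 0.228, edgeR adjusted p = 0.041). In TPM the groups overlapped, at 0.78, 0.53 and 1.14 against 1.82, 1.04 and 1.07. The call was lost without shControl 1 (edgeR adjusted p = 0.066), shControl 2 (0.16), shSTBD1 1 (0.13), shSTBD1 2 (0.12) or shSTBD1 3 (0.077), and DESeq2 gave this gene no adjusted p. ITGB2, the beta chain with which it forms a receptor, had at most 4 counts in any library. Of the leukocyte markers PTPRC, CD3E and MS4A1 were at 0 in every library. The list summed to between 7.49 and 8.52 TPM in shControl and between 11.3 and 12.8 TPM in shSTBD1, mostly CD68, a lysosomal protein, which rose (0.47, SE 0.0946, edgeR adjusted p = 0.0027).

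ITGAM, also of myeloid cells, had 28 counts per library and was not called (0.19, SE 0.255). ITGAE, which on intraepithelial lymphocytes pairs with ITGB7 to bind E-cadherin, had 252 counts on average. Its TPM was 27.6, 38.9 and 35.1 in shControl (33.9 ± 5.77) and 30.4, 31.2 and 27.5 in shSTBD1 (29.7 ± 1.93, SD, n = 3). It was not called (-0.21, SE 0.102, edgeR adjusted p = 0.18). Without shControl 1 it came out lower (-0.32, edgeR adjusted p = 0.017). Its effective length was 446 to 467 bases, against 3803 bases for its longest transcript, so its TPM stands high for few reads. ITGB7 had 9.57 counts per library and a log2 fold change of -0.00037 (SE 0.459). Of the genes tested below the expression threshold, ITGB3 (0.57, SE 0.398, edgeR adjusted p = 0.37) and ITGB8 (0.46, SE 0.229, edgeR adjusted p = 0.2) were not called.

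Effective length separated the groups for 6 of the 29 tested genes (20.7%), against 9.55% of all tested genes. It was longer in shSTBD1 for LAMA2, LAMB1, ITGAV and LAMB3 and shorter for LAMA3 and ITGAE. For ITGAV the lengths were 5540, 5694 and 5146 bases in shControl and 6455, 5840 and 6589 bases in shSTBD1, a ratio of 1.15, and its mean TPM ratio of 0.781 was accordingly lower than its fold change in counts of 0.916. For LAMB3 the ratio was 1.04 and for ITGAE 0.969.

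**Figure D4:**
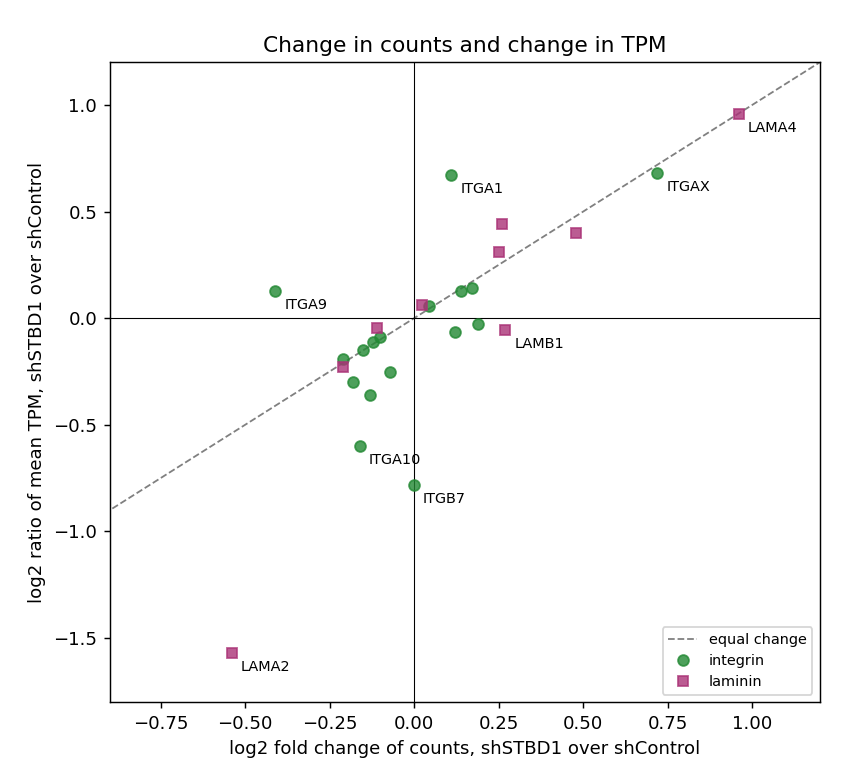
Log2 ratio of mean TPM (vertical) against log2 fold change of counts (horizontal), shSTBD1 over shControl, for 26 expressed genes, with the dashed line where both are equal. LAMA4 lies on the line (0.96 on both axes), LAMA2 far below it (-1.57 against -0.54) and LAMB1 on the other side of 0 (-0.053 against 0.27).

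By the GENCODE 44 annotation, 8 of the 14 called genes share exon bases with another gene, 2 of them (LAMA5 with ADRM1 and LAMB1 with DLD) with a protein-coding one on the opposite strand. The shared bases came to at most 2.75% of a called gene's exon bases for any single partner. Among genes not called some shares were larger, 42.3% for ITGB7 with ZNF740 and 33.2% for ITGB3 with an overlapping coding gene. ITGAE shares 427 bases (6.47%) with HASPIN, a coding gene on the opposite strand, beside an effective length of only 446 to 467 bases. Whether reads of HASPIN entered the ITGAE counts was not tested. Whether strand was used in counting is not given in the sources used here, so reads in these stretches are uncertain.

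Genes around the receptors and ligands were described with 7 further lists, 85 genes of which 70 were tested, with a median log2 fold change of -0.069. The 6 called higher were 8.57% of the 70, against 8.22% of all tested genes, and the 16 called lower were 22.9%, against 7.54%. Of 10 tested laminin receptors and basement membrane partners, 4 were called (15.8% of all tested genes were), all lower: COL18A1 (-0.33) and COL4A5 (-0.24), both collagens, and HSPG2 (-0.23) and AGRN (-0.19), the proteoglycans perlecan and agrin, with standard errors between 0.0303 and 0.0495. The receptors DAG1 (-0.025, edgeR adjusted p = 0.68) and BCAM (-0.018, edgeR adjusted p = 0.88) were not called. Mean TPM of BCAM, whose effective length was shorter in shSTBD1, was 32.4 (SD 1.01) in shControl and 35.1 (SD 0.899) in shSTBD1. Of 11 tested integrin ligands other than laminins, 1 was called, against 15.8% of all tested genes. It was CDH1, the E-cadherin bound by ITGAE with ITGB7, which rose (0.29). FN1, the fibronectin bound by ITGA5, was not called in counts (-0.14, SE 0.0576, edgeR adjusted p = 0.1). Its mean TPM was lower in shSTBD1, at 7.85 (SD 0.3) against 10.2 (SD 0.622) in shControl. The effective length of FN1 was longer in every shSTBD1 library than in every shControl library. No length-scaled test is reported here for FN1.

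Inside the cell, 3 of 5 activators that bind integrin beta tails fell (7.54% of all tested genes were called lower), the kindlin FERMT1 (-0.33, SE 0.04, edgeR adjusted p = 2.6e-05) and the talins TLN2 (-0.29) and TLN1 (-0.15). Of 12 genes that restrain or move integrins, 5 were called, against 15.8% of all tested genes. TNS1 (0.40), ITGB1BP1 (0.24) and CD9 rose, and TNS4 (-0.42) and FLNA (-0.21) fell. Of 5 hemidesmosome partners of ITGA6 and ITGB4, 2 were called, again beside 15.8% of all tested genes. The tetraspanin CD151 rose (0.12) and COL7A1, the anchoring fibril collagen, fell (-0.34). Among 19 tested kinases and adaptors of focal adhesions CAV1 rose (0.10) and PARVA (-0.26) and PXN (-0.12) fell. Those 3 of 19 are a share equal to the 15.8% called among all tested genes.

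Of 8 tested genes listed as matrix and cell-surface proteases, 4 were called, all lower, against 7.54% of all tested genes called lower. PLAUR, among the 8, is the urokinase receptor rather than a protease and was not called (0.13, SE 0.045, edgeR adjusted p = 0.057). ADAM19, a membrane-bound metalloprotease, went from 56.2 ± 0.229 to 33.3 ± 1.33 TPM (SD, n = 3), with a log2 fold change of -0.71 (SE 0.0339, edgeR adjusted p = 1.2e-09). PLAU, the urokinase that activates plasminogen, fell by 0.26 on the log2 scale, ADAM9 by 0.25 and BMP1, which processes laminin chains, by 0.17. MMP14, which also cleaves laminin chains, was not called (0.17, SE 0.0734, edgeR adjusted p = 0.13).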

How the data were processed

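RNA-seq of 6 HCT116 samples, 3 shControl and 3 shSTBD1, was analysed from 1 table per library, and samples were grouped by their labels. The authors sequenced paired reads of 125 or 150 bases, removed adapters and low-quality reads, aligned to Hg38 with STAR 2.7.1a and Ensembl 93 gene models, and estimated genes with RSEM 1.3.1. The authors deposited expected counts, which are not normalized, TPM, the effective length of each gene, and a score of how surely its reads were assigned (RSEM's posterior standard deviation). Whether counting used strand is not given in the sources used here.

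After rounding to whole numbers, the counts were filtered with filterByExpr, scaled by TMM (factors 0.979 to 1.009) and compared by edgeR's quasi-likelihood test (edgeR 4.0.16, R 4.3.3), without a block, with Benjamini-Hochberg adjustment. Each standard error is the size of the log2 fold change divided by the square root of its F value. DESeq2 1.42.0, limma 3.58.1 (with pseudocounts of 1 and 0.1 TPM) and 15 alternative settings in all were tried. Of 58395 genes, 57754 were matched to a symbol. Positions and transcript lengths come from GRCh38 with GENCODE 44, which is later than the annotation of the files.

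The genes, the further lists, the markers and the motif were chosen with earlier results of these data known. Named were genes of both families with a mean of at least 0.5 TPM (1 gene counted in the totals is not reported here), with values per library for those called and the most abundant of each role, and up to 4 called genes of each further list, those with the largest change. Outside this rule DAG1, BCAM, RPSA, FN1, COL1A1, CD9, MMP14, PLAUR, EPCAM, KRT20 and CDX2 were named after their values were seen. So were the genes under 0.5 TPM, to account for every gene. Depth was 17689097 to 21668274 counts per library, and precision was lowest for the genes with the fewest counts. Other RNA-seq of the study was not analysed here.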

Additional observations from a re-analysis of the deposited data

How the results depend on the processing

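Of the 14 called genes, LAMA2, LAMB2 and LAMB3 were called in the same direction under all 15 alternatives, and 9 of the 14 in all 6 fits that leave out 1 library. By limma on log2(TPM + 1), 292 genes were called (178 higher, 114 lower), with 3 integrins and laminins (2 higher, 1 lower), and on log2(TPM + 0.1), 290 (176 higher, 114 lower), again 3 (2 higher, 1 lower). With offsets for effective length the count was 512 (288 higher, 224 lower), with 6 of both families (4 higher, 2 lower). DESeq2 called 1690 genes and 11 of both families. Leaving out 1 library gave between 1409 and 2577 genes (785 to 1333 higher, 624 to 1244 lower), with between 9 and 15 of both families (6 to 8 higher, 3 to 7 lower). STBD1 was at -0.54 (limma adjusted p = 0.065, log2(TPM + 1)) and -0.65 (limma adjusted p = 0.067, log2(TPM + 0.1)).

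Signs turned for LAMB1 (-0.044 and -0.046 by limma with 1 and 0.1 TPM added, -0.042 with length offsets) and, among genes not called, for ITGA9 (0.039, 0.059 and 0.10 in that order), ITGA7 (-0.017) and ITGAM (-0.0045) with length offsets, and ITGB7 with library size alone (0.011). Without 1 library, ITGA1 ranged from -0.013 to 0.28, ITGA10 from -0.30 to 0.033, LAMC1 from -0.0049 to 0.06 and ITGB7 from -0.29 to 0.31. The cause was not tested.

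When replicate numbers entered the fit as a block, 2579 genes and 15 of both families were called: ITGA6 joined (edgeR adjusted p = 0.027), ITGB7 turned to 0.012, and no other call among the 29 changed. Deviations of same-numbered samples correlated at 0.0708, 0.0676 and -0.00841, those of differently numbered samples at -0.0741 to 0.0101. With 3 libraries per group these values cannot decide whether same-numbered samples shared a batch. Of all values for single genes under the alternatives, 357 kept direction and side of the threshold, 48 lost the call, 6 gained one and 15 turned sign. Few reads limit ITGAX, ITGB7, ITGA10, ITGAM, ITGA1 and ITGA9.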

Other observations

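The shares of single chains in the summed TPM of their class differed in how they moved. ITGA3 held between 40.6% and 44.4% of integrin alpha TPM over all 6 libraries and ITGB4 between 25.5% and 28.7% of integrin beta TPM. ITGB5 held between 9.2% and 11.1% in shControl and between 6.75% and 8.97% in shSTBD1. No test was made on these shares, which sum to a fixed total within each class.

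RPSA, a ribosomal protein once described as a laminin receptor, stood at 2524 ± 17.8 TPM in shControl and 2447 ± 59.9 TPM in shSTBD1 (SD, n = 3), above every integrin and laminin chain, and was not called (-0.023, SE 0.0297, edgeR adjusted p = 0.66). The collagen chains COL4A1 and COL4A2, usual partners of laminin in a basement membrane, were at 0.06 TPM or less in every library, and the nidogens NID1 and NID2 at 0.45 TPM or less, while COL4A5 was at 23.9 ± 4.54 TPM in shControl (SD, n = 3).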
